A study of Danio rerio with 12 samples.

Results

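The genes described here are 33 genes of differentiated neurons, chosen by symbol: the neurofilament and tubulin genes nefma, nefmb, inab and tuba1c, the RNA-binding protein genes elavl3, elavl4 and rbfox1, the axon growth genes gap43, stmn2a and stmn2b, and genes of the synapse and its transmitters. All 33 symbols were found. They stood on 34 of the 31465 rows of the count table, because cplx2 is given for 2 Ensembl genes (ENSDARG00000061918 and ENSDARG00000111920), and all 34 rows passed the filter on low counts, which left 21068 rows to test. The symbols were chosen with earlier results of these data known, so counts over them are descriptions and not independent evidence of a direction.

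RNA was sequenced in 12 libraries of zebrafish embryos, 3 from each of 4 groups. The groups were wild-type embryos of strain AB at 48 hours post fertilization (hpf), Mycn mutant embryos at 48 hpf, and the same genotypes at 72 hpf. Every group was raised in Danieau buffer, and the labels give the tissue as embryonic cells. The series is about a zebrafish model of Feingold syndrome 1, which in humans follows from loss of function of MYCN, a transcription factor of the Myc family. The sources used here do not give the allele, the strain it was bred into, whether mutants were homozygous, whether the genotypes shared parents, or whether a library was a pool. P-values therefore measure only how far these libraries lie apart, and that spread may be technical.

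A neuron that has left the cell cycle builds an axon stiffened by neurofilaments and microtubules, and Elavl proteins hold its messages stable. At its synapse, vesicles carrying synaptophysin and synapsin are loaded with glutamate by Slc17 transporters or with GABA by Slc32a1. They fuse through the SNARE proteins Snap25, Vamp and syntaxin, with synaptotagmin and complexin as regulators. Released glutamate acts on receptors such as the NMDA receptor, whose obligatory subunit is encoded by grin1 genes, and is then taken up by Slc1a2 transporters. In zebrafish slc1a2b is known from astroglia, and rbfox1 is also known from muscle, so the symbols are not all restricted to neurons.

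Neuron, glia, lens, photoreceptor and muscle markers were all detected in the libraries. Library totals ran from 14793715 to 19732340 counts. Levels are given as TMM-scaled CPM, counts per 1000000 of the scaled library total, with mean ± SD over n = 3 libraries, and a count of 3 was worth 0.151 to 0.216 CPM in a single library. mycn itself was higher in the libraries labelled mutant (edgeR quasi-likelihood test). Its mean was 74.0 ± 14.9 CPM in wild type against 222 ± 25.2 CPM with the mutant label at 48 hpf (log2 difference 1.59, SE 0.13, adjusted p = 5.45e-06), and 77.3 ± 2.25 CPM against 153 ± 9.87 CPM at 72 hpf (log2 difference 0.98, SE 0.13, adjusted p = 0.00144). With no allele given, this level does not check the labels, so the libraries are called mutant-labelled below and every direction rests on the labels. Replicates of the neuron genes were far apart at 48 hpf and close at 72 hpf. The median SD of log2 CPM over the 34 rows was 0.255 in wild-type and 0.279 in mutant-labelled libraries at 48 hpf, against 0.080 and 0.078 at 72 hpf. Over all tested rows it was 0.238, 0.198, 0.130 and 0.143 in that order. Single libraries stood apart at 48 hpf: wild-type replicate 3 was the highest of its group in 23 of the 34 rows, mutant-labelled replicate 1 was the highest of its group in 30 and mutant-labelled replicate 3 the lowest in 24. At 72 hpf wild-type replicate 1 was the lowest of its group in 24 rows and wild-type replicate 3 the highest in 18. Such counts were not taken over all tested rows.

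At 48 hpf the mutant-labelled libraries had more RNA of 7 of the 34 rows and less of 0. The 7 were nefma, nefmb, inab and tuba1c of the axonal cytoskeleton and grin1b, grm8b and slc1a2a of glutamate reception and uptake (edgeR quasi-likelihood test, adjusted p under 0.05). Of all tested rows 3.04% were called, 1.04% higher and 2% lower. The other 27 rows did not pass. The median log2 difference, the log2 fold change of mutant-labelled against wild-type libraries, over the 34 rows was 0.31, against -0.003 over all tested rows, and 32 of the 34 values were above 0, as were 49.5% of all. Unadjusted p-values were under 0.05 for 17 higher rows and 0 lower ones, where 7.94% of all rows were higher. In 11 rows every mutant-labelled library lay above every wild-type one, and in 0 rows below, against 7.69% and 9.08% of all tested rows. These were bulk samples, so more cells of a type and more RNA per cell cannot be told apart.

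This count rests on single libraries. Without mutant-labelled 48 hpf replicate 1, edgeR called 0 of the 34 rows, with 10 higher at an unadjusted p under 0.05, and the median was 0.19. Without wild-type 48 hpf replicate 3 it called 14 rows higher and the median was 0.49. The share of all tested rows called higher was 0.312% in the first fit, 2.53% in the second and 1.04% in the main fit. Without wild-type replicate 1 of this age 4 rows passed, and 2 did without mutant-labelled replicate 2, grm8b and vamp1. These fits called 0.766% and 0.457% of all tested rows higher. Leaving out a 72 hpf library, which enters through the shared estimate of spread, left 3 or 4 rows. Without wild-type 72 hpf replicates 1, 2 and 3, edgeR called 0.713%, 0.629% and 0.671% of all tested rows higher. DESeq2 called 7 rows, with vamp1 in place of slc1a2a, and limma-voom 2, tuba1c and grin1b. These tools called 1.88% and 0.983% of all tested rows higher. Fitted on their own, the 6 libraries of 48 hpf gave 0 calls among the 33 rows tested there, while unadjusted p-values were under 0.05 for 10 higher rows and 0 lower ones. Over all its rows that fit gave 74 calls, against 641 in the main fit, and 0.0771% of its rows were higher. Shares of all rows by unadjusted p-values were not taken in fits with libraries left out. The main p-values of both ages use 1 spread shared by all 12 libraries, so the numbers of calls at 48 and 72 hpf depend on it. The median SD over the 34 rows was 0.255 and 0.279 at 48 hpf, and 0.080 and 0.078 at 72 hpf. Over all rows, fits of 1 age alone gave fewer calls than the main fit at 48 hpf and more at 72 hpf (793 against 117). The 7 and 0 member calls of the main fit are therefore not a measure of a difference between the ages.

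**Figure D1:**
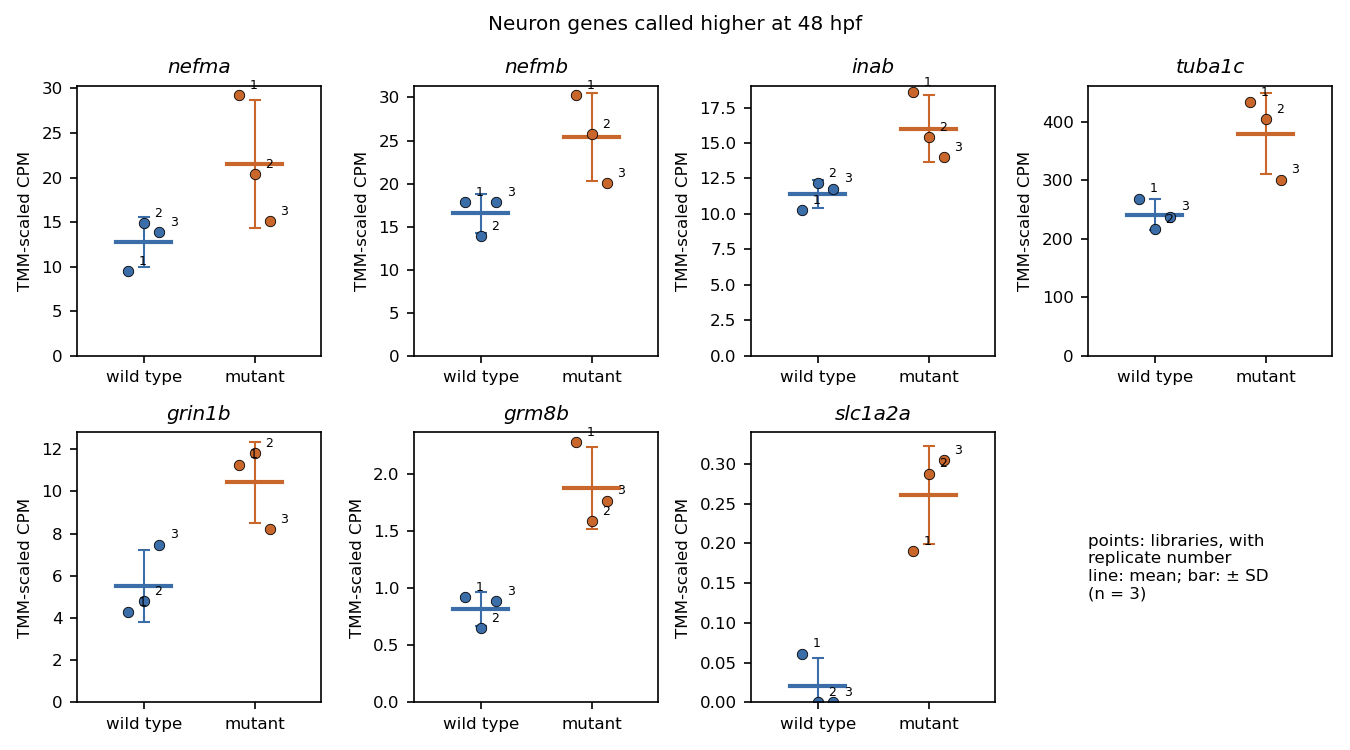
TMM-scaled CPM of the 7 neuron genes called higher at 48 hpf, per library, with replicate numbers, the mean as a line and the SD as a bar (n = 3 per group). Every mutant-labelled point lies above every wild-type point, by little in nefma (15.09 against 14.9 CPM), and slc1a2a holds 1 count in all wild-type libraries together.

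All 4 genes of the cytoskeleton were called higher in mutant-labelled libraries at 48 hpf, with log2 differences from 0.49 to 0.76. Among all tested rows 1.04% were called higher. tuba1c, an alpha-tubulin gene, stood at 269, 217 and 238 CPM in the wild-type libraries, in the order of their numbers, and at 433, 405 and 301 CPM in the mutant-labelled ones (log2 difference 0.65, SE 0.14, adjusted p = 0.0218). nefma, which encodes a medium neurofilament subunit, stood at 9.55, 14.9 and 13.9 CPM in wild type and at 29.3, 20.4 and 15.09 CPM in mutant-labelled libraries (log2 difference 0.76, SE 0.20, adjusted p = 0.0496). The groups of both genes did not overlap, though mutant-labelled replicate 3 of nefma lay just above the highest wild-type value. Its paralogue nefmb stood at 17.9, 13.9 and 17.8 CPM against 30.3, 25.7 and 20.1 CPM (log2 difference 0.61, SE 0.15, adjusted p = 0.0413). inab, an internexin gene of neuronal intermediate filaments, stood at 10.3, 12.2 and 11.8 CPM against 18.6, 15.4 and 13.99 CPM (log2 difference 0.49, SE 0.13, adjusted p = 0.0471). These groups did not overlap either, and in all 4 genes replicate 1 was the highest and replicate 3 the lowest mutant-labelled library. The calls of nefma, nefmb and inab were ended by 14, 10 and 12 of 20 alternatives, and that of tuba1c by 3 of 20.

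Of the 5 genes of glutamate reception and uptake, 3 were called higher at 48 hpf, where 1.04% of all tested rows were. grin1b, one of the paralogues for the obligatory NMDA receptor subunit, stood at 4.28, 4.82 and 7.48 CPM in wild type and at 11.3, 11.8 and 8.21 CPM in mutant-labelled libraries. The groups did not overlap, with wild-type replicate 3 the highest and mutant-labelled replicate 3 the lowest of their groups (log2 difference 0.91, SE 0.18, adjusted p = 0.0122). grm8b, a metabotropic glutamate receptor gene, stood at 0.918, 0.651 and 0.883 CPM against 2.28, 1.58 and 1.76 CPM, and its groups did not overlap (log2 difference 1.19, SE 0.25, adjusted p = 0.0203). It rested on 10 to 36 counts in a library. The calls of grin1b and grm8b were each ended by 3 of 20 alternatives, among them the fit of the 6 libraries on their own. slc1a2a, a glutamate transporter, held 1, 0 and 0 counts in wild-type and 3, 4 and 5 counts in mutant-labelled libraries. This was 12 counts against 1 and a ratio of 12.7 with an exact 95% counting interval of 1.87 to 541 (adjusted p = 0.0398), so the gene was barely detected at this age in either genotype. slc1a2a passed the low-count filter only through the 72 hpf libraries, and the fit of the 6 libraries of 48 hpf did not test it. Of 19 alternatives 12 ended its call, DESeq2 among them (adjusted p = 0.0731). The remaining paralogues did not pass: grin1a stood at 19.1 ± 4.61 against 23.2 ± 5.01 CPM and slc1a2b at 107 ± 9.40 against 121 ± 6.17 CPM (adjusted p = 0.406 and 0.375).

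None of the 13 rows of vesicle release passed in edgeR at 48 hpf, although 12 of them had positive values. Unadjusted p-values were under 0.05 for 6 of them, where 7.94% of all tested rows were higher by such p-values. DESeq2 called vamp1, limma-voom called none, and the median was 0.28. The smallest p was that of vamp1, a vesicle SNARE gene, at 7.89, 9.57 and 9.01 CPM in wild type and 14.7, 9.997 and 11.8 CPM in mutant-labelled libraries. Its groups did not overlap (log2 difference 0.47, SE 0.13, adjusted p = 0.0674). syn2a, a synapsin gene, stood at 13.8 ± 3.14 against 20.2 ± 6.66 CPM with overlapping groups, and snap25b, the SNARE partner at the plasma membrane, at 19.2 ± 3.45 against 25.7 ± 5.12 CPM (adjusted p = 0.143 and 0.123). Log2 fold changes of 0.33, 0.30 and 0.28 were measured for the synaptophysin genes sypa and sypb and the calcium sensor gene syt1a (adjusted p = 0.121 to 0.386). Those of syn2b, vamp2, snap25a and syn1 were 0.21, 0.20, 0.19 and 0.09. The complexin gene cplx2 had -0.08 on ENSDARG00000061918 and 0.32 on ENSDARG00000111920 (adjusted p = 0.825 and 0.246).

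None of the 6 genes that make or load transmitters passed either, in edgeR, DESeq2 or limma-voom, and the median was 0.33. Unadjusted p-values were under 0.05 for 3 of them, where 7.94% of all tested rows were higher by such p-values. slc17a6b, a vesicular glutamate transporter, had the smallest p, at 17.2, 19.5 and 16.9 CPM in wild type and 20.8, 22.7 and 23.5 CPM in mutant-labelled libraries. Every mutant-labelled library lay above every wild-type one (log2 difference 0.33, SE 0.10, adjusted p = 0.104). Its paralogue slc17a6a stood at 6.07 ± 1.66 against 8.31 ± 0.562 CPM (adjusted p = 0.268). The GABA side had overlapping groups throughout: the synthesis genes gad1b and gad2 stood at 9.40 ± 2.73 against 12.6 ± 2.68 CPM and 10.4 ± 2.64 against 13.1 ± 4.53 CPM, and the vesicular transporter gene slc32a1 at 14.1 ± 4.31 against 16.6 ± 4.63 CPM (adjusted p = 0.231, 0.450 and 0.607). slc17a7a, another vesicular glutamate transporter gene, had the other of the 2 negative values in the list, at 1.38 ± 0.207 against 1.28 ± 0.463 CPM (log2 difference -0.11, SE 0.26, adjusted p = 0.888).

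The RNA-binding and axon growth genes had the lowest medians of the roles at 48 hpf, 0.11 and 0.26, and 0 of 6 passed in edgeR, DESeq2 or limma-voom. The unadjusted p was under 0.05 for stmn2a alone, where 7.94% of all tested rows were higher by such p-values. elavl3, an early marker of new neurons, stood at 102, 125 and 98.8 CPM in wild-type and 132, 117 and 128 CPM in mutant-labelled libraries, with overlap (log2 difference 0.21, SE 0.11, adjusted p = 0.331). elavl4 and rbfox1 had log2 fold changes of 0.10 and 0.11 (adjusted p = 0.786 and 0.605). stmn2a, a stathmin of growing axons, stood at 49.4, 46.4 and 65.2 CPM against 80.3, 72.1 and 53.2 CPM (log2 difference 0.35, SE 0.15, adjusted p = 0.218). Wild-type replicate 3 lay above mutant-labelled replicate 3, which is also the arrangement in gap43, a growth cone protein gene, with 54.1 against 42.2 CPM in those libraries (adjusted p = 0.396). stmn2b had a log2 fold change of 0.14 (adjusted p = 0.598).

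**Figure D2:**
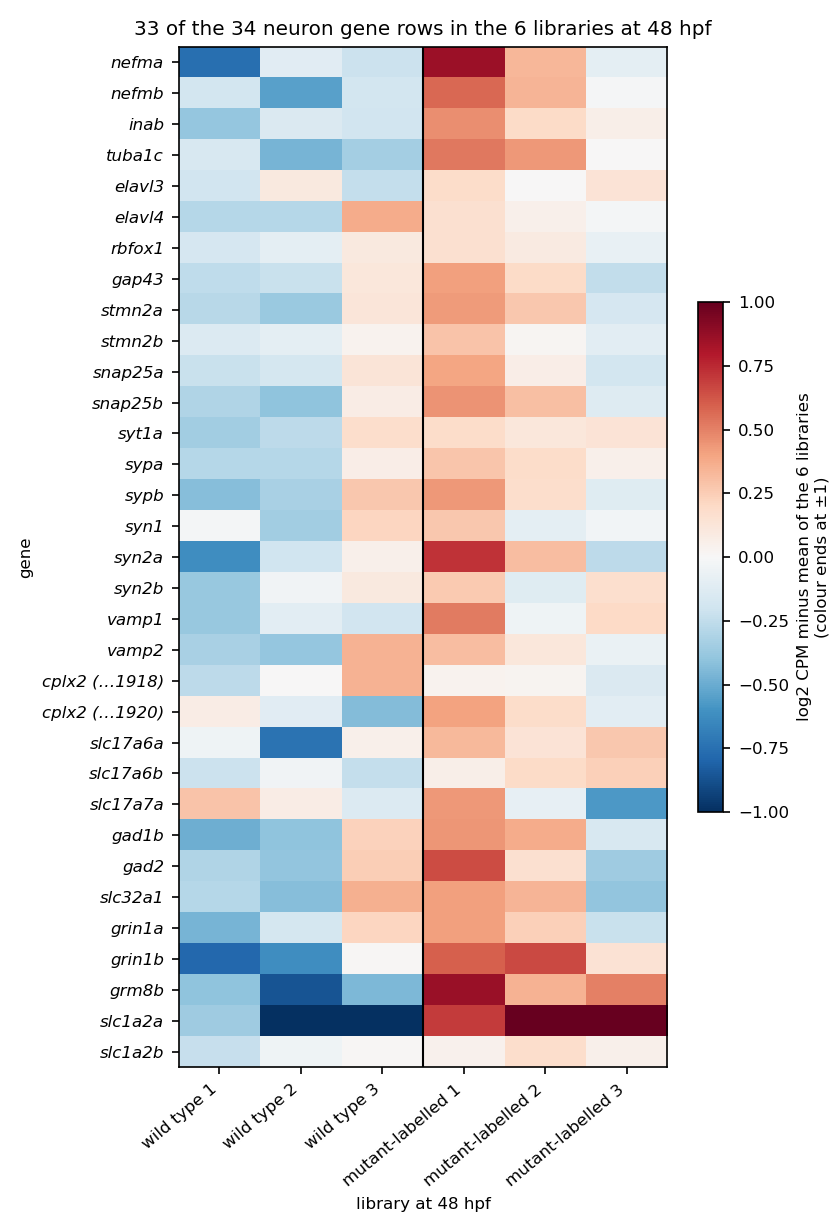
Log2 CPM of 33 of the 34 rows in the 6 libraries at 48 hpf, each minus its mean over these libraries, with colours ending at ±1. Over all 34 rows mutant-labelled replicate 1 is the highest of its group in 30 rows, mutant-labelled replicate 3 the lowest in 24, and wild-type replicate 3 the highest of its group in 23.

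The library pattern at 48 hpf was shared by most members. A score was taken as the mean over the 34 rows of log2 CPM, each centred over the 12 libraries. It was -1.63, -1.64 and -1.36 in wild-type libraries and -0.95, -1.14 and -1.36 in mutant-labelled libraries. The highest wild-type and the lowest mutant-labelled library therefore met at the same value. The group means were -1.54 and -1.15 at 48 hpf and 1.28 and 1.41 at 72 hpf, so the genotypes were 0.40 apart at the earlier age where the ages were 2.83 apart in wild type and 2.55 in mutant-labelled libraries. Without mutant-labelled replicate 1 the genotypes were 0.30 apart at 48 hpf, and without wild-type replicate 3 they were 0.49 apart. At 72 hpf the scores were 1.22, 1.30 and 1.33 in wild-type and 1.40, 1.40 and 1.42 in mutant-labelled libraries, without overlap and 0.12 apart.

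At 72 hpf no member was called in edgeR, and DESeq2 and limma-voom called none either. Of all tested rows 0.555% were called at this age, 0.133% higher and 0.422% lower. In edgeR 3 rows were higher and 0 lower with unadjusted p-values under 0.05, where 3.67% of all tested rows were higher. The median was 0.11, against 0.013 over all tested rows, and 31 of the 34 values were above 0, as were 53% of all. In 13 rows every mutant-labelled library lay above every wild-type one and in 0 below, against 11% and 9.14% of all tested rows. In 6 rows the mutant-labelled libraries lay above at both ages, and the share of all tested rows that did so was not taken. Fitted on their own, the 6 libraries of 72 hpf gave 1 call, slc1a2a (adjusted p = 0.0344), with 9 rows higher and 0 lower by unadjusted p-values. Of all 20182 rows of that fit 793 were called, 1.63% higher and 2.3% lower, against 117 calls in the main fit. Its share of rows by unadjusted p-values was not taken.

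Of the 7 genes called at 48 hpf, 5 had overlapping groups at 72 hpf and 2, inab and slc1a2a, had groups that did not overlap. At 72 hpf 11% of all tested rows had every mutant-labelled library above every wild-type one. tuba1c stood at 722, 909 and 886 CPM in wild type and 960, 778 and 914 CPM in mutant-labelled libraries, nefma at 80.3, 80.5 and 84.3 against 86.5, 75.1 and 91.1 CPM, and nefmb at 67.8, 63.7 and 63.9 against 66.9, 57.1 and 78.7 CPM. In these 3 genes the mutant-labelled values lay on both sides of wild-type ones (adjusted p = 0.979, 0.992 and 0.989). grin1b stood at 206, 197 and 219 CPM against 210, 202 and 208 CPM, a log2 fold change of -0.002 (SE 0.14, adjusted p = 1.00). grm8b stood at 12.01, 15.8 and 15.7 CPM against 16.3, 17.2 and 15.8 CPM, with overlap (adjusted p = 0.906). inab stood at 29.4, 30.7 and 29.7 CPM in wild type and 32.6, 38.7 and 32.9 CPM in mutant-labelled libraries, and slc1a2a at 31.4, 32.3 and 39.8 against 42.5, 46.4 and 43.7 CPM. Neither passed (log2 differences 0.22 and 0.36, SE 0.11 and 0.12, adjusted p = 0.728 and 0.331).

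The slc17a6 transporter genes had positive values at both ages. Across the list 32 of the 34 rows were positive at 48 hpf and 31 at 72 hpf. The shares over all tested rows were 49.5% and 53%. slc17a6b stood at 80.9, 93.8 and 92.3 CPM in wild-type and at 102, 114 and 100 CPM in mutant-labelled libraries at 72 hpf, without overlap and without passing the test (log2 difference 0.24, SE 0.09, adjusted p = 0.500). slc17a6a stood at 2.17, 1.74 and 1.83 against 3.51, 2.37 and 2.71 CPM, also without overlap (log2 difference 0.58, SE 0.24, adjusted p = 0.565). vamp1 stood at 84.3, 94.0 and 93.3 CPM against 99.2, 99.2 and 102 CPM. These 3 genes, with inab, slc1a2a and slc1a2b, are the 6 rows without overlap at both ages. At 72 hpf alone the groups of snap25a, syn1, syn2a, slc17a7a, gad1b, slc32a1 and grin1a did not overlap, with 0 of these 7 passing. Every mutant-labelled library lay above every wild-type one in 11% of all tested rows at this age. gad1b stood at 179, 187 and 199.9 CPM in wild type and 219.6, 232 and 211 CPM in mutant-labelled libraries (log2 difference 0.23, SE 0.15, adjusted p = 0.842). slc32a1 stood at 132, 153 and 146 CPM against 157, 167 and 164 CPM (adjusted p = 0.943), while gad2 overlapped at 157 ± 14.04 against 174 ± 7.45 CPM. Over the 13 rows of vesicle release the log2 fold changes at 72 hpf lay between 0.04 and 0.23. The RNA-binding and axon growth genes lay between -0.15 and 0.08, with elavl3 at the low end at 103, 90.5 and 94.8 CPM against 86.7, 77.7 and 95.6 CPM (adjusted p = 0.888) and stmn2a at 260, 263 and 259 CPM against 249, 299 and 277 CPM (adjusted p = 0.978).

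The genotype effect itself was compared between the ages, and 0 of the 34 rows passed in edgeR. Of all tested rows 0.47% were called, 0.285% higher and 0.185% lower. Unadjusted p-values were under 0.05 for 0 higher rows and 7 lower ones. Lower means that the effect at 72 hpf lay below that at 48 hpf. The share of all tested rows with such p-values was not taken for this comparison. The split therefore has no background to be set against and is a description only. limma-voom called 0, and DESeq2 called 1, grin1b, whose effect was 0.91 lower at 72 hpf on the log2 scale (SE 0.22, edgeR adjusted p = 0.098). Without wild-type 48 hpf replicate 3 and without mutant-labelled 48 hpf replicate 3, edgeR also called grin1b and no other member.

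**Figure D3:**
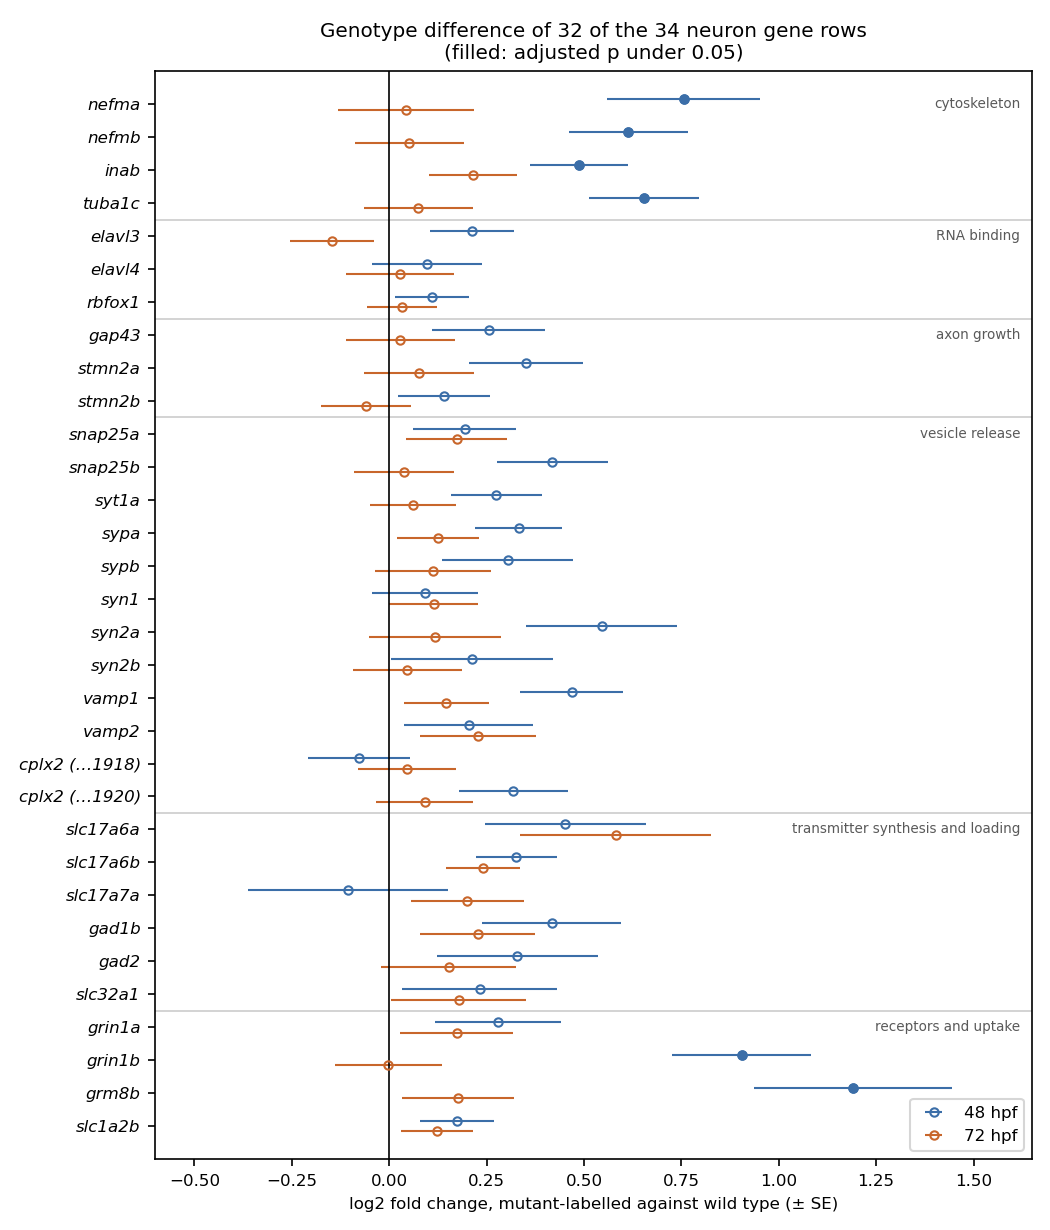
Log2 fold change of mutant-labelled against wild-type libraries with its SE for 32 of the 34 rows at 48 and 72 hpf, grouped by role, with filled points for an adjusted p under 0.05. The drawn filled points are the 4 cytoskeleton genes, grin1b and grm8b at 48 hpf, and at 72 hpf the points lie between -0.15 and 0.58, with no filled point.

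From 48 to 72 hpf most of the list rose steeply in both genotypes. In wild-type libraries 32 rows rose and 1 fell, and in mutant-labelled libraries 32 rose and 2 fell. Of all tested rows 70.8% were called in wild type, 35.4% higher and 35.4% lower, and 70.2% in mutant-labelled libraries, 35.7% higher and 34.4% lower. The median log2 fold change was 2.96 and 2.79, against -0.015 and -0.004 over all tested rows. The age comparisons of the genotypes share no library. Every alternative called 33 or 34 of the 34 rows in each genotype.

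**Figure D4:**
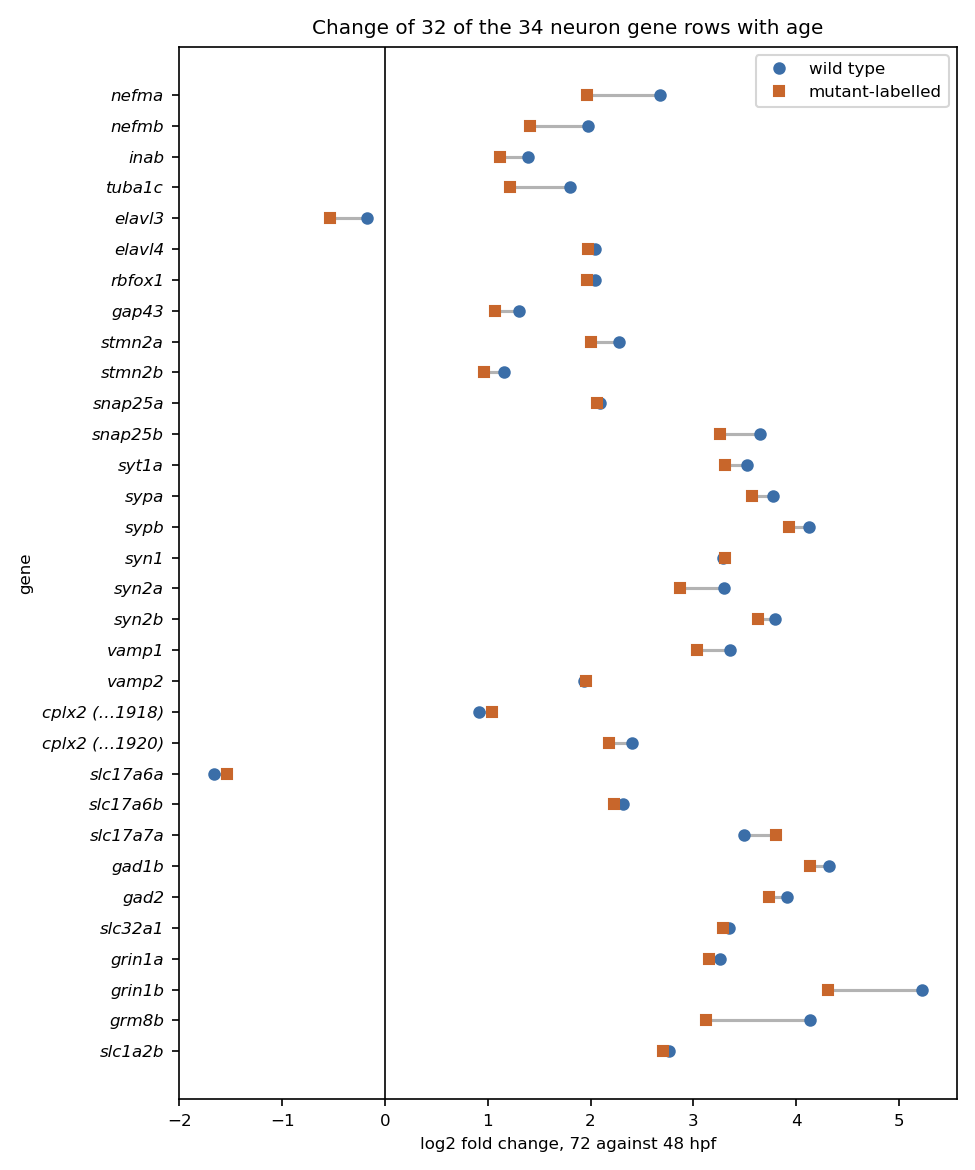
Log2 fold change from 48 to 72 hpf of 32 of the 34 rows in wild-type and in mutant-labelled libraries. grin1b reaches 5.22 in wild type and 4.31 in mutant-labelled libraries, the cytoskeleton and axon genes lie between 0.96 and 2.68, and elavl3 and slc17a6a lie below 0.

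In both genotypes slc1a2a, grin1b and gad1b had the largest folds of the list. slc1a2a went from 1 to 1940 counts over the wild-type libraries, a ratio of 1679 (95% counting interval 301 to 66360), and from 12 to 2463 counts over the mutant-labelled ones, a ratio of 170 (97.2 to 330). It passed the low-count filter only through 72 hpf libraries, so a rise of this row was fixed in advance. grin1b rose 37.3-fold in wild type and 19.9-fold in mutant-labelled libraries, gad1b 19.99-fold and 17.5-fold, and grm8b 17.5-fold and 8.69-fold. These rises and the genotype differences at 48 hpf use the same 48 hpf libraries, so they are not separate evidence. Of the vesicle genes, sypb rose 17.4-fold and 15.3-fold, sypa 13.7-fold and 11.9-fold, syn2b 13.9-fold and 12.4-fold, snap25b 12.5-fold and 9.61-fold and syt1a 11.5-fold and 9.94-fold in wild-type and mutant-labelled libraries (adjusted p from 6.01e-13 to 4.02e-11). Of the other transmitter and receptor genes gad2 rose 15.01-fold and 13.3-fold, slc17a7a 11.3-fold and 13.96-fold, slc32a1 10.2-fold and 9.79-fold, grin1a 9.60-fold and 8.91-fold and slc1a2b 6.77-fold and 6.54-fold. Of the other vesicle genes vamp1 rose 10.3-fold and 8.203-fold, syn2a 9.82-fold and 7.30-fold and syn1 9.78-fold and 9.94-fold, while snap25a and vamp2 had folds between 3.83 and 4.25.

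By the median log2 fold change, axon growth genes changed less with age than those of vesicle release. The medians were 1.30 and 1.07 in wild-type and mutant-labelled libraries, against 3.30 and 3.04 for vesicle release. The roles overlapped, since in wild type stmn2a rose 4.85-fold and the vesicle genes vamp2 and snap25a 3.83-fold and 4.25-fold. Of the cytoskeleton genes nefma rose 6.40-fold and 3.90-fold, nefmb 3.93-fold and 2.66-fold and tuba1c 3.47-fold and 2.33-fold. stmn2a rose 4.85-fold and 4.01-fold, elavl4 4.14-fold and 3.94-fold, rbfox1 4.12-fold and 3.90-fold and cplx2 on ENSDARG00000111920 5.30-fold and 4.53-fold. gap43 rose 2.46-fold and 2.11-fold, stmn2b 2.24-fold and 1.95-fold, inab 2.62-fold and 2.17-fold, and cplx2 on ENSDARG00000061918 1.89-fold and 2.06-fold. elavl3 was the sole row without a call in wild type, with a log2 fold change of -0.18 (adjusted p = 0.155), and fell by 0.54 on the log2 scale in mutant-labelled libraries (adjusted p = 3.44e-04). With library totals in place of TMM factors it rose by 0.26 in wild type (adjusted p = 0.0474) and had no call in mutant-labelled libraries, so its direction depends on the scaling. The difference between these changes did not pass (adjusted p = 0.418). slc17a6a fell by 1.66 in wild type and by 1.53 in mutant-labelled libraries (adjusted p = 8.15e-06 and 1.07e-05), while its paralogue slc17a6b rose 4.99-fold and 4.70-fold.

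For paralogues of the list the measure was the log2 ratio of their CPM within a library. It describes shifts of a proportion and not which gene is expressed more, since gene length was not used. For grin1b over grin1a the ratio was -1.81, -1.92 and -1.69 in wild-type and -1.29, -1.05 and -1.11 in mutant-labelled libraries at 48 hpf. At 72 hpf it was 0.24, 0.10 and 0.18 in wild-type and -0.01, -0.02 and 0.03 in mutant-labelled libraries. The proportion of grin1b was thus higher in all mutant-labelled libraries at 48 hpf and lower in all of them at 72 hpf, without overlap at either age. Among 10 such pairs this and snap25b over snap25a at 48 hpf were the cases without overlap of genotypes. That ratio was -1.87, -2.02 and -1.85 in wild type and -1.74, -1.56 and -1.75 in mutant-labelled libraries. A 2-sided exact permutation test of 3 against 3 libraries cannot go below p = 0.1, which these 3 cases reached, and adjusted over the 10 pairs they were 0.5 at 48 hpf and 0.6 at 72 hpf. With age the ratio of slc17a6b over slc17a6a moved most, from means of 1.6 and 1.43 at 48 hpf to 5.54 and 5.21 at 72 hpf in wild-type and mutant-labelled libraries, followed by elavl4 over elavl3, from -0.42 and -0.50 to 1.83 and 2.01.

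Other neuron genes, on 6 lists of the cytoskeleton, synapse, transmitters, receptors, RNA-binding proteins and transcription factors, were measured in the same libraries. Of 229 symbols 214 were found and 210 rows tested, of which 6 were higher (2.86%) and 0 lower at 48 hpf. Of all tested rows 1.04% were higher and 2% lower. Of the 210 values 152 were above 0, as were 49.5% of all tested rows. Their median was 0.14, against -0.003 over all tested rows. The 6 were tuba1b and nefla of the cytoskeleton, syt11a and napbb of the synapse, and the glutamate receptor genes gria4b and grm2a. gria4b, an AMPA receptor subunit gene, stood at 3.12, 3.32 and 3.18 CPM in wild type and 5.88, 7.05 and 6.57 CPM in mutant-labelled libraries, so both groups were tight and did not overlap (log2 difference 1.02, SE 0.13, adjusted p = 6.13e-04). The fit of the 6 libraries on their own was the single one of 20 alternatives that ended its call (adjusted p = 0.0678). tuba1b, an alpha-tubulin gene, stood at 119, 171 and 145 CPM against 241, 205 and 219 CPM (log2 difference 0.61, SE 0.12, adjusted p = 0.00988). In mutant-labelled libraries napbb stood 1.84-fold, grm2a 1.92-fold, nefla 1.80-fold and syt11a 1.38-fold higher (adjusted p = 0.025, 0.0266, 0.0387 and 0.0433). Of 20 alternatives, 18 also called tuba1b, 17 napbb, 14 grm2a, 7 nefla and 8 syt11a.

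Transmitter enzymes and transporters outside the list had a median of 0.002 at 48 hpf, RNA-binding proteins 0.17 and neuronal transcription factors 0.10. None of their 25, 14 and 39 tested rows passed in edgeR. By unadjusted p-values under 0.05, 2, 2 and 4 were higher and 0, 0 and 2 lower, where 7.94% of all tested rows were higher. The smallest p in these lists were those of the GABA transporter gene slc6a1a, the splicing factor gene srrm4 and ebf3a on ENSDARG00000100244 (adjusted p = 0.0613, 0.0548 and 0.16). At 72 hpf 0 of the 210 rows passed in edgeR, where 0.555% of all tested rows were called. The median of the 210 was 0.06, against 0.013 over all tested rows. By unadjusted p-values under 0.05, 6 of the 210 were higher and 3 lower, where 3.67% of all tested rows were higher. The share of all tested rows lower by such p-values was not taken at either age. The smallest p of the 6 lists were those of inaa, syt5a, slc6a11a, gabra6a, rbfox3b and neurod6b (adjusted p = 0.247 to 0.64). From 48 to 72 hpf 174 of the 210 rose and 12 fell in wild type, and 167 and 16 in mutant-labelled libraries. A row that passed the low-count filter only through libraries of 1 age had its direction with age fixed in advance. Such rows were not counted here. Of all tested rows 35.4% rose and 35.4% fell in wild type, and 35.7% and 34.4% in mutant-labelled libraries.

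**Figure D5:**
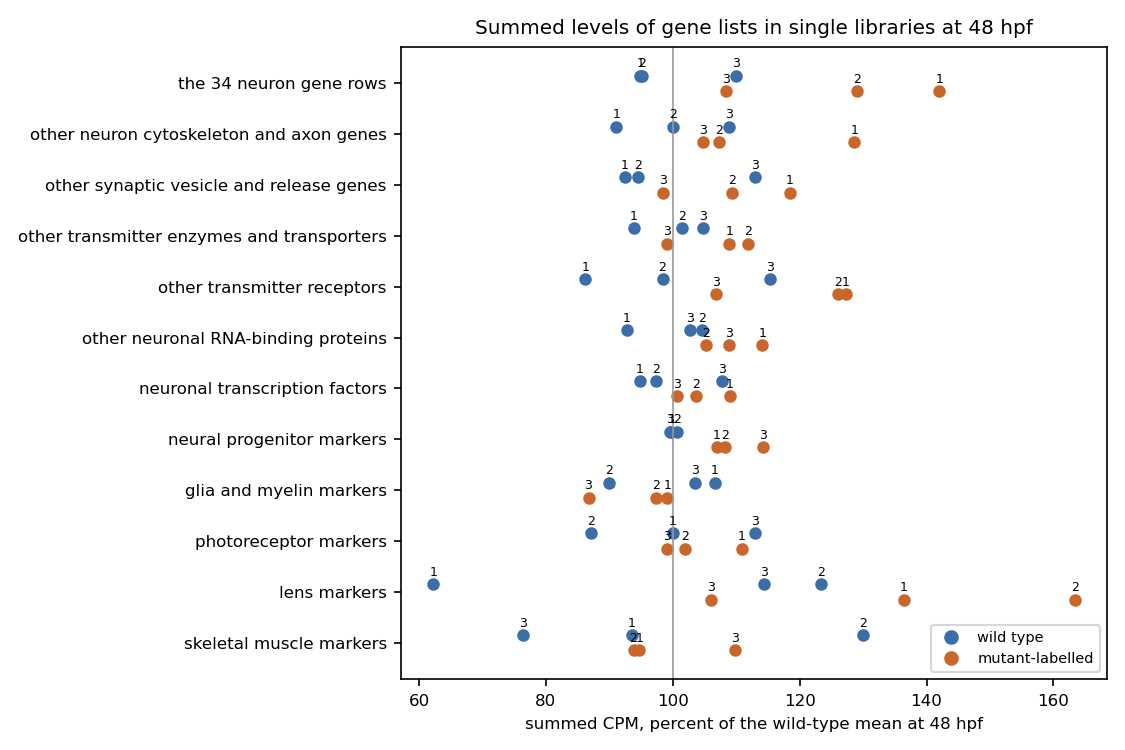
Summed CPM of the 34 rows and of 11 other gene lists in each library at 48 hpf, as a percent of the wild-type mean, with replicate numbers. The 34 rows reach 142 percent in mutant-labelled replicate 1 and overlap at 108 against 110 percent in mutant-labelled and wild-type replicate 3, and the muscle list runs from 76.4 to 130 percent among wild-type libraries.

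Markers of other cells at 48 hpf were summed in the same libraries, and their part in the result was not tested. The 35 rows of neural progenitor markers summed to 2742 to 2775 CPM in wild type and to 2945 to 3148 CPM in mutant-labelled libraries, without overlap. Of all tested rows taken singly, 7.69% had every mutant-labelled library above every wild-type one. Of the 35 progenitor rows 28 had positive values, as did 49.5% of all tested rows, though 0 passed in edgeR (median 0.11). By unadjusted p-values under 0.05, 5 were higher and 0 lower, where 7.94% of all tested rows were higher. The smallest p was that of notch1a, at 40.5 ± 5.46 against 56.9 ± 16.3 CPM (adjusted p = 0.111). With age 19 of the 35 progenitor rows fell and 9 rose in wild type, and 21 and 5 in mutant-labelled libraries. Of all tested rows 35.4% fell and 35.4% rose in wild type, and 34.4% and 35.7% in mutant-labelled libraries. The 23 rows of glia and myelin markers summed to 1977 to 2341 CPM against 1905 to 2178 CPM. Of their 22 tested rows 1 was higher, against 1.04% of all tested rows. It was slc1a3b, a glial glutamate transporter gene, at 17.6, 18.2 and 18.4 CPM against 26.6, 23.0 and 23.9 CPM (log2 difference 0.44, SE 0.10, adjusted p = 0.0335).

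The sums of lens, photoreceptor and muscle markers overlapped between genotypes at 48 hpf. The 26 rows of lens markers summed to 1467, 2907 and 2695 CPM in wild type and to 3213, 3851 and 2498 CPM in mutant-labelled libraries. Of 24 tested rows 21 had positive values and 2 were higher, lim2.5 and crygmx (median 0.44, adjusted p = 0.0197 and 0.0391). Of all tested rows 49.5% had positive values and 1.04% were higher. The 36 rows of photoreceptor markers summed to 232 to 300.4 CPM against 264 to 295 CPM. Of 35 tested rows 2 were higher, pdca at 9 counts in wild-type and 42 in mutant-labelled libraries and grk1b at 4 and 23 (adjusted p = 0.00453 and 0.0197). Over a whole group at 48 hpf, guca1b and the lens gene cryaba held 0 counts in wild type and 1 in mutant-labelled libraries. The counts of opn1lw1 were 1 and 0. In both genotypes ptgdsb.2 of the glia list and tubb2b of the wider neuron cytoskeleton list held 0. The 32 rows of skeletal muscle markers summed to 90760 to 154400 CPM against 111400 to 130400 CPM, with 0 rows passing in edgeR (median -0.004). By unadjusted p-values under 0.05, 2 were higher and 0 lower, where 7.94% of all tested rows were higher. The smallest p among muscle markers was that of myhc4 (adjusted p = 0.0687). Wild-type replicate 3, where the neuron genes were highest in that group, had the lowest muscle sum. Wild-type replicates 1 and 2 had neuron sums of 1152 and 1155 CPM beside muscle sums of 111100 and 154400 CPM. Mutant-labelled replicate 1, with the highest neuron sum, had a muscle sum of 112500 CPM, against 111400 CPM in replicate 2 and 130400 CPM in replicate 3. A relation between the 2 sums was not tested.

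At 72 hpf the same lists had 0 calls in edgeR. By unadjusted p-values under 0.05, 12 photoreceptor, 4 muscle and 3 glia rows were higher and 3 progenitor rows lower. Of all tested rows 3.67% were higher by such p-values, and the share that was lower was not taken. The medians were 0.28 for photoreceptor markers, with 34 of 35 values above 0, and 0.26 for muscle markers, with 30 of 32. They were 0.09 for glia, 0.04 for lens and -0.06 for progenitors, beside 0.11 for the neuron genes. Over all tested rows the median was 0.013, and 53% of the values were above 0. Photoreceptor sums were 8471 to 10170 CPM in wild-type and 11730 to 12430 CPM in mutant-labelled libraries. The smallest p of these 5 lists were those of opn1mw2, atp2a1l, ptgdsb.1, crygm3 and her9 (adjusted p = 0.0632, 0.488, 0.0921, 0.943 and 0.506). By RefSeq's GRCz12tu table, in which 31 of the 34 rows were matched, 1 member, snap25a, lies on the chromosome that carries mycn, and it did not pass at either age (adjusted p = 0.497 and 0.889).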

How the data were processed

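Counts of reads per Ensembl gene were used as deposited by the authors, with the symbol given beside each identifier. STAR, featureCounts, DESeq2 and the build GRCz11 appear in the submitters' processing notes, without roles or versions. The sources used here give neither strand use nor the annotation release, so reads of overlapping genes or near-identical copies cannot be told apart. The main test was edgeR 4.0.16 under R 4.3.3: filterByExpr with a minimum count of 10, TMM factors, and 1 quasi-likelihood model of all 12 libraries with a coefficient per group. P-values were adjusted by Benjamini-Hochberg over all 21068 tested rows and called under 0.05. The SE is the log2 fold change divided by the square root of its F. Alternatives used DESeq2 1.42.0, limma 3.58.1, other scalings and filters, the replicate number as a block, and each library left out. The calling step was tested on simulated data, drawn gene by gene with the same fitted spread in all 12 libraries. That test therefore does not bear on the unequal spread between ages or on single libraries that stand apart. Intervals and floors cover counting error only.

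Members and lists were chosen with earlier results of these data known. Every member but 1, which is not reported here, is named and counts over the list include it; values of every library are given for members called in a genotype comparison and for the member of smallest p at 48 hpf in each role. Other lists give up to 3 called genes per direction, or that of smallest p. No replicate pair was identical. The table held no sample column beyond the 12 used.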

Additional observations from a re-analysis of the deposited data

Results flagged for a closer look

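The difference of the genotype effect between the ages was tested in the 210 rows of the wider neuron lists. It was called higher in 0 and lower in 2, against 0.285% and 0.185% of all tested rows. The AMPA receptor subunit gene gria4b had log2 fold changes of 1.02 at 48 hpf and 0.15 at 72 hpf, a difference of -0.87 (SE 0.16, edgeR adjusted p = 0.0241). The alpha-tubulin gene tuba1b had 0.61 and -0.22, a difference of -0.83 (SE 0.16, edgeR adjusted p = 0.0376). The call held in 12 of 19 alternatives for gria4b and in 10 of 19 for tuba1b.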

How the results depend on the processing

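Of the 34 neuron gene rows, the 7 called at 48 hpf became 2 with limma-voom, 4 with the replicate block and 0 with only the 6 libraries of that age, and 0 to 14 when a library was left out. The 14 came without wild-type 48 hpf replicate 3 and the 0 without mutant-labelled replicate 1 of that age. Without these replicates the share of all tested rows called higher was 2.53% and 0.312%, against 1.04% in the main fit. It was 0.983% with limma-voom, 0.688% with the block and 0.0771% with only the 6 libraries. Leaving out any 72 hpf library gave 3 or 4 of the neuron gene rows. The median at 48 hpf ran from 0.19 to 0.49 over libraries left out and from 0.30 to 0.40 otherwise. The 0 calls at 72 hpf became 1 with only its 6 libraries and stayed 0 whichever library was left out, where the median was 0.08 to 0.14. The 0 calls for the difference between ages became 1 with DESeq2 and 1 with all genes of at least 1 count, and 0 to 1 without a library. Age calls were 33 in wild type and 34 in mutant-labelled libraries without any 1 library. The cause of these changes was not tested.

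The replicate number did not pair samples (correlations of deviations from -0.138 to 0.025), so the block result says nothing on the size of the effect. Over all rows, 641 calls at 48 hpf became 222 and 323 without mutant-labelled replicates 1 and 2, 1133 without wild-type replicate 3, 1063 with DESeq2 and 74 with only the 6 libraries. At 72 hpf 117 became 24 to 195 without a library, 260 with DESeq2, 195 with limma-voom, 74 with the block and 793 with only the 6 libraries. For the difference between ages 99 became 23 to 276 without a library, 266 with DESeq2, 175 with all genes and 59 with the block. Library totals alone gave 453 rows higher and 287 lower at 48 hpf, against 219 and 422, and in wild type 10466 higher and 4658 lower with age, where the median of all rows was 0.42. With totals elavl3 changed sign with age in wild type, to 0.26. No other called value of the members or of the other genes tried changed sign.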
